A study of Bos taurus with 6 samples.

Results

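Partially methylated domains are long stretches of a chromosome in which CpGs carry intermediate methylation instead of the high level found over most of a mammalian genome. Here the name is used for runs of at least 3 adjacent 100-kb bins, each with a pooled methylation level under 58%. A bin entered if it had at least 100 reads in each of 6 libraries, and its level was the methylated share of all its CpG reads, summed over the libraries. Of 25138 bins on the 29 autosomes, 25076 passed the read minimum and 5791 (23.1%) were low. Of the low bins, 2796 lay in runs of 3 or more, which made 443 domains of 279.6 Mb in all, or 11.2% of the bins that passed.

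The libraries were whole-genome bisulfite libraries of rumen epithelial primary cells (REPC), cultured cells of the forestomach lining. The 3 control libraries came from REPC without butyrate, and the 3 butyrate libraries from REPC kept for 24 h in medium with 5 mM butyrate. The labels give no time for the control libraries, and the study describes the groups as before and after treatment. Time in culture may therefore differ between the groups and cannot be told apart from butyrate. Butyrate is a short-chain fatty acid of rumen fermentation and a known inhibitor of histone deacetylases. All 6 libraries trace back to 1 animal (Holstein, bull calf, age 2 weeks, diet of milk replacer). The study's methods call the 3 libraries of a condition biological replicates, and the labels do not say whether each came from its own culture, so p-values measure the spread between libraries of 1 animal. Butyrate replicates 1 and 3 were read on lane 5 and the other 4 libraries on lane 6, so that lane and treatment overlap in part and lane 6 alone leaves 1 butyrate library against 3 control libraries. The files hold methylation and no transcripts, so the cell type could not be checked against its markers.

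In mammalian cells partially methylated domains are known to replicate late, to lie at the nuclear lamina and to hold few active genes. Methylation is copied to the new strand after each replication by the maintenance methyltransferase DNMT1. Solitary CpGs in late-replicating DNA are known to keep their methylation less well over many divisions than CpGs with close neighbours. Unmethylated CpG islands, short CpG-dense stretches that often hold promoters, lower the mean level of a region by another route. For that reason the domains were described below by their CpG density and by the level of sparse and dense CpGs apart. Genes inside the domains were not analysed here, because the gene table at hand was built on another cattle assembly.

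The levels of the domain bins were set by the rule and are given as a description. The median domain bin had a level of 52.4%, the lowest 7.70%, and the middle of the distribution was broad, with 10% of bins under 42.2% and 10% over 56.8%. A level under 50% was found in 933 domain bins (33.4%), under 40% in 218, and under 30% in 54. The other 22280 bins, in which low bins outside the domains are counted, had a median of 67.6%. The levels of all bins formed 1 peak without a gap at the threshold. There were 236 domain bins between 57% and 58%, and 720 other bins between 58% and 59%. The bin just inside was chr8:71800001-71900000 at 57.999%, and a bin just outside was chr20:48300001-48400000 at 58%. The domains were therefore the low flank of a continuous distribution, and membership of the bins near the threshold rested on small differences in level.

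**Figure D1:**
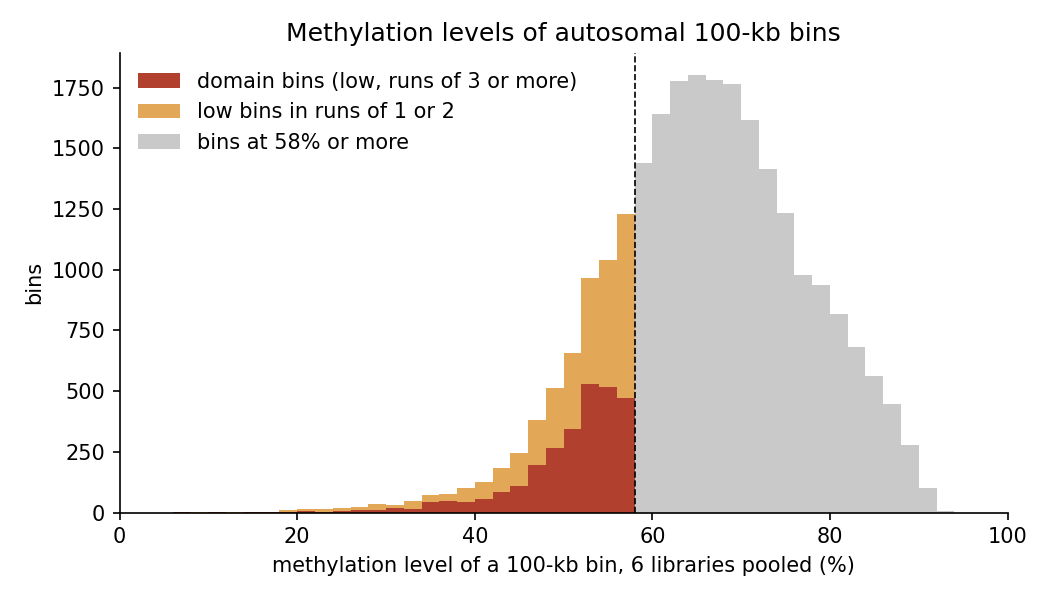
Number of autosomal 100-kb bins (vertical axis) by pooled methylation level in percent (horizontal axis, steps of 2 points). Red marks the 2796 domain bins, yellow the 2995 low bins in runs of 1 or 2, and grey the bins at or above the threshold of 58% (dashed line); the distribution has 1 peak and no gap at the threshold.

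Low bins were clustered along the chromosomes. After a low bin, the next bin was low in 49.0% of cases, against 15.2% after a bin that was not low. There were 2055 low runs of 1 bin and 470 of 2 bins, and these 2995 low bins stayed outside the domains. Among the domains, 282 had 3 to 5 bins, 153 of them the minimum of 3, and 89 had 6 to 9 bins. The remaining 72 domains were 1 Mb or longer and held 1142 of the domain bins (40.8%), and 15 of these were 2 Mb or longer. The median length was 400 kb, the mean 631 kb and the longest 5100 kb. In 72 places only 1 bin parted a pair of domains. Of these bins 65 had the read minimum, with a median level of 60.3% and a range from 58.03% to 79.3%, so part of the counted domains were pieces of longer low stretches.

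The longest domain was chr9:3600001-8700000 (positions on UMD3.1.1), 5100 kb in length, with a pooled level of 51.5% and 6.49 CpG cytosines seen per kb. Its level was 50.6%, 52.1% and 51.1% in the control libraries and 51.8%, 51.8% and 51.5% in the butyrate libraries, so the groups overlapped. Its bins ranged from 38.9% to 57.6%. In windows of 500 bp with 1 to 5 cytosines its level was 43.1%, below its level over all windows. Domains of 3400 kb lay at chr20:49100001-52500000 and chr16:6700001-10100000. The former had a level of 51.6%, 52.2% and 52.3% in control and 52.4%, 52.3% and 52.4% in butyrate libraries. The latter was lower, at 46.8%, 46.5% and 46.1% in control and 46.3%, 46.0% and 46.5% in butyrate libraries. The groups overlapped in both. As in the longest domain, their windows with 1 to 5 cytosines were below the whole domain, at 45.1% on chromosome 20 and 39.4% on chromosome 16.

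The lowest domain, chr19:38400001-38700000, was 300 kb long and had 17.2%, 16.2% and 17.5% methylation in control and 15.8%, 14.3% and 17.4% in butyrate libraries, which overlapped. It held 32.8 cytosines per kb, and 77.4% of its reads lay in 500-bp windows with over 15 cytosines, where its level was 9.38%. In its windows with 1 to 5 cytosines the level was 43.8%. The next, chr2:83000001-83300000, was CpG-poor at 5.97 cytosines per kb and had 18.1%, 19.1% and 17.95% in control and 16.9%, 18.2% and 19.8% in butyrate libraries. In that domain 62.8% of the reads lay on cytosines with over 141 pooled reads, far more than most cytosines had, and its level without them was 30.4%. The domain chr4:69200001-69600000 had 20.7%, 19.6% and 19.3% in control and 21.3%, 18.7% and 20.9% in butyrate libraries. The groups overlapped in these domains too. The domain on chromosome 4 held 28.1 cytosines per kb, with a level of 11.9% in windows with over 15 cytosines and 56.6% in windows with 1 to 5. In all 3 of these domains most reads came from windows with over 15 cytosines, whose levels were 9.38%, 11.4% and 11.9%.

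Very deep cytosines changed few of the domains. Over 20% of the reads lay on such cytosines in 7 of 443 domains, and none of the 7 reached 58% without them. Among domain bins 15 (0.536%) had such a share, against 388 (1.74%) of the other bins. Of the 8 domains under 30%, 3 had over 20% of their reads on these cytosines.

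CpG density was not used by the rule. Domain bins had a median of 7.64 CpG cytosines seen per kb (in any library), against 11.6 in the other bins. The means were 10.96 and 15.2, a ratio of 0.720. In the fifth of bins with the lowest density, 24.6% were domain bins, and these 1236 bins made up 44.2% of all domain bins. In the fifth with the highest density 6.24% were domain bins. Low bins outside the domains were not CpG-poor, with a median of 13.2 per kb. The read minimum bears on this comparison: with at least 200 reads per bin the ratio was 0.930. Reads per covered cytosine were lower in the domains in 6 of 6 libraries, at 1.38 ± 0.028 (SD, n = 6) against 1.502 ± 0.035 in the other bins. The bins were the same in all 6 libraries of 1 animal, so this count over libraries is a description. CpGs that no library read are missing from the density and from the split by density below. Whether coverage has a part in the density or in the level was not tested.

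The domains fell into sparse and dense ones when split at 11.2 cytosines per kb, the median density of all bins. There were 260 CpG-poor domains with 1960 bins and 183 CpG-rich domains with 836 bins. In 500-bp windows with 1 to 5 cytosines, the median CpG-poor domain had a level of 47.1%, and 255 of the 260 were under 58% there. The median CpG-rich domain had 59.98% in such windows, and 80 of 183 were under 58%. In CpG-rich domains a median of 57.9% of the reads lay in windows with over 15 cytosines, against 15.7% in CpG-poor domains. Length went with the same division. Among domains of 1 Mb or more, 70 of 72 were under 58% in windows with 1 to 5 cytosines, and among those of 2 Mb or more 15 of 15 were. In domains of 300 to 500 kb it was 185 of 282. In all, 335 of the 443 domains were under 58% in their sparse windows, and the other 108 were at or above it, so the name of partially methylated domain does not describe the sparse windows of these 108 runs. The reads of these windows are part of those that the rule used, so the counts are a description. Of these 108 domains 103 were CpG-rich, and 97 were 300 to 500 kb long.

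**Figure D2:**
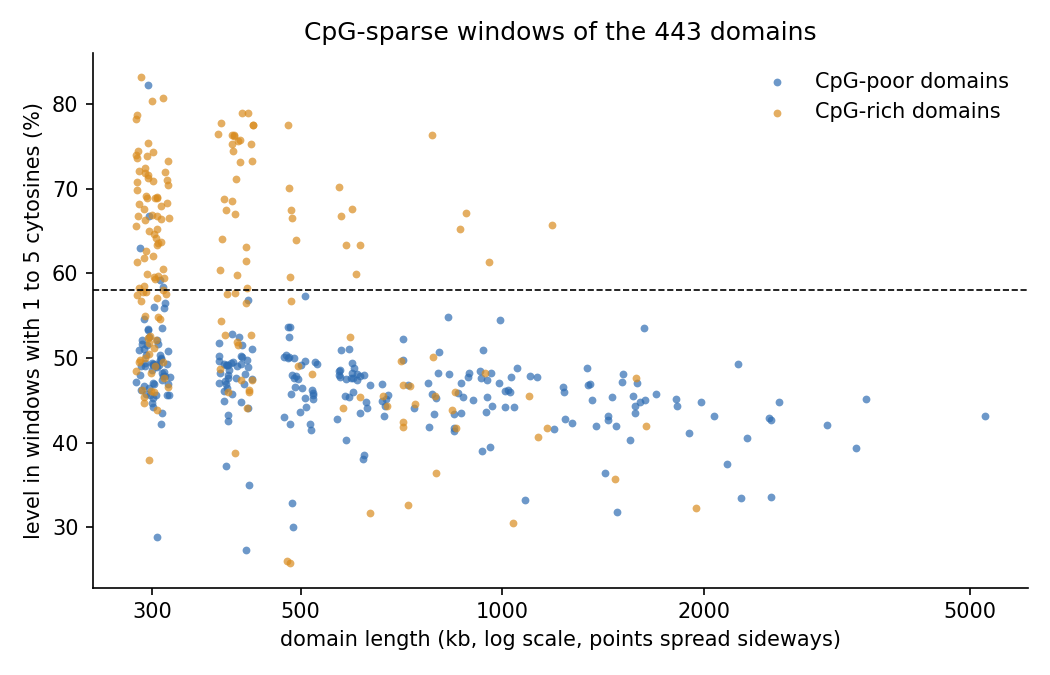
Each point is 1 of the 443 domains, with its length in kb (log scale, points spread sideways for legibility) and its pooled methylation level in percent in 500-bp windows with 1 to 5 CpG cytosines. Blue marks the 260 CpG-poor and orange the 183 CpG-rich domains; below the dashed line at 58% lie 255 and 80 of them, and 15 of 15 domains of 2 Mb or more.

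Within each class of local density the domains were lower than the other bins. The rule used these same reads, so the choice favours a lower level in the domains and the levels are a description. The same holds for the cytosines sorted by neighbours and the single sites described below. Pooled levels in domain bins were 47.9% in windows with 1 to 5 cytosines, 57.4% with 6 to 15, 59.1% with 16 to 30 and 29.9% with over 30. The matching levels in the other bins were 69.0%, 73.7%, 73.1% and 58.8%. The gap was widest in the densest windows. When the class levels of the domains were weighted by the read shares of the other bins, the domains had 46.9% in place of 48.8%, against 67.7% in the other bins. CpG-poor domains were at 45.4% in windows with 1 to 5 cytosines, and their level was 55.005% and 60.03% in the next classes. CpG-rich domains were nearly level over the same classes, at 54.9%, 59.8% and 58.8%. The low bins outside the domains had a like level over all windows, 49.5%, and a different pattern. Their windows with 1 to 5 cytosines were at 64.98%, nearer to the 69.0% of the other bins, while their windows with over 30 cytosines were at 23.99%.

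**Figure D3:**
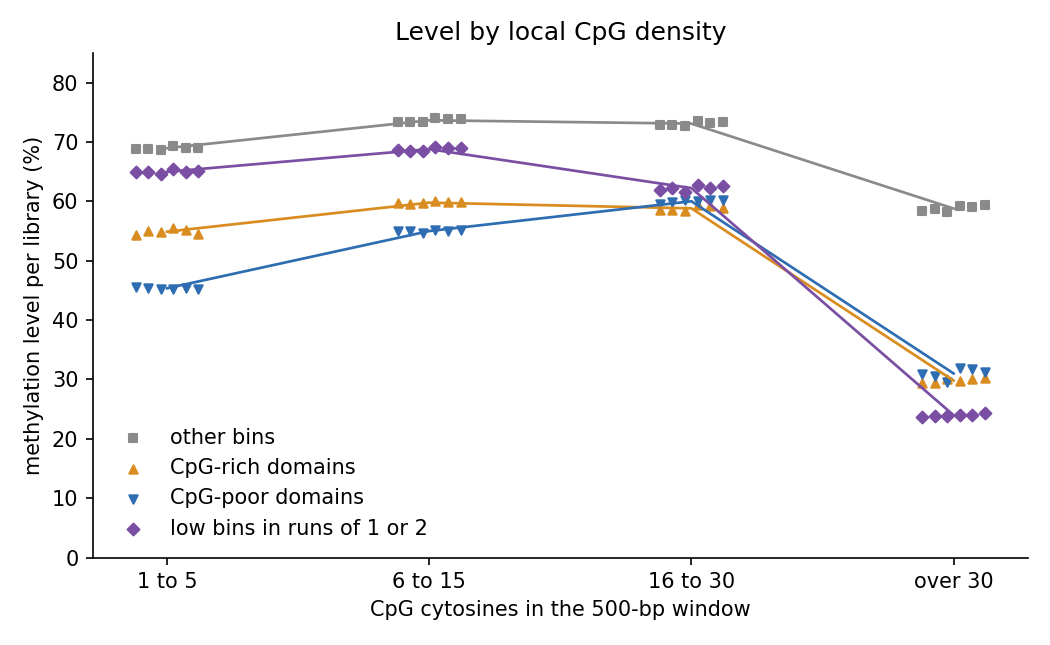
Methylation level in percent (vertical axis) in 500-bp windows by their number of CpG cytosines (horizontal axis), with 1 point per library for CpG-poor domains, CpG-rich domains, low bins in runs of 1 or 2, and all bins outside the domains; lines join the means of 6 libraries. In windows with 1 to 5 cytosines the CpG-poor domains were at 45.4% and the low bins in short runs at 64.98%, while over all windows they had 50.4% and 49.5%.

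Single cytosines showed the same order when they were sorted by their neighbours. Cytosines with no other CpG cytosine seen within 35 bp had a level of 46.1% in domains and 67.3% in the other bins, and 41.4% in CpG-poor domains. With 1 or 2 others within 35 bp the levels were 57.4% and 72.8%, and with 3 to 6 others 58.5% and 72.3%. In CpG-poor domains the levels in these classes were 56.1% and 64.7%, above the solitary cytosines. Other bins at or below the median density had the same order, at 64.2%, 73.1% and 75.7%. With 7 or more others, the levels were 30.2% in domains and 59.0% elsewhere. The neighbours counted here are cytosines that at least 1 library covered, on either strand, so a cytosine called solitary can have neighbours without reads. The directly adjacent positions were left out, so the partner of the same CpG on the other strand is not counted. A neighbouring CpG counts once for each strand that was covered.

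Levels were also read at single sites. Of 96807 sites in domains with at least 8 pooled reads, 29.2% were under 20% methylated, 45.8% between 20% and 80%, and 24.95% at 80% or more. In the other bins these shares were 14.02%, 37.4% and 48.6% of 1257330 sites. Most of the domain sites, 67455, lay in CpG-rich domains, where the shares were 32.3%, 40.8% and 26.9%. In CpG-poor domains, with 29352 sites, they were 22.1%, 57.4% and 20.5%. In windows with 1 to 5 cytosines, 59.9% of domain sites were between 20% and 80% and 18.03% were at 80% or more, against 45.5% and 46.7% elsewhere. In windows with over 30 cytosines 53.4% of domain sites were under 20%, against 22.8% elsewhere. There the share between 20% and 80% was lower in domains, 28.3% against 36.6%. With few reads a site, the share between 20% and 80% includes counting error. The sites with 8 or more reads favour dense windows, which hold 34.8% of these domain sites but 26.6% of domain reads.

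The spread inside the domains was read in smaller tiles. These tiles split the bins that the rule chose, so their low levels follow in large part from it and are a description. In tiles of 10 kb with at least 100 pooled reads, the median was 53.3% and the SD over tiles 13.7 points in domains, and 67.7% of the tiles were under 58%. In the other bins the SD was 15.4 points, and 15.9% of tiles were under 58%. Tiles at 70% or more made up 7.69% of domain tiles. CpG-poor domains had an SD of 10.6 points and 71.9% of tiles under 58%, and CpG-rich domains 18.1 points and 59.995%. The other bins at or below and above the median density had SDs of 13.4 and 16.8 points, so that the spread was larger at high density in both. In 442 domains with 10 or more such tiles, the median share of low tiles was 64.0%, and 11 domains had 90% or more of their tiles low.

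The step at the edge is set by the rule, since the bin inside is under 58% and the bin next to it is not, and is given as a description. The median tile level was 61.9% in the last 10 kb outside and 57.4% in the first 10 kb inside, and it was 54.8% at 20 to 30 kb inside. The median was 64.5% at 90 to 100 kb and 66.2% at 290 to 300 kb outside, without a steady climb between them. For whole bins the median was 53.5% in the first bin inside, 62.1% in the first outside, 61.2% in the second and 62.6% in the third, against 67.6% in all other bins. Low bins outside the domains are counted in these surroundings, and bins of other domains are not. CpG density changed little across the edge. The median was 9.70 cytosines per kb in the last tile outside and 8.90 in the first inside. Of 886 edges, 40 lay at a chromosome end or at a bin without the read minimum and were left out of the outer profile.

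**Figure D4:**
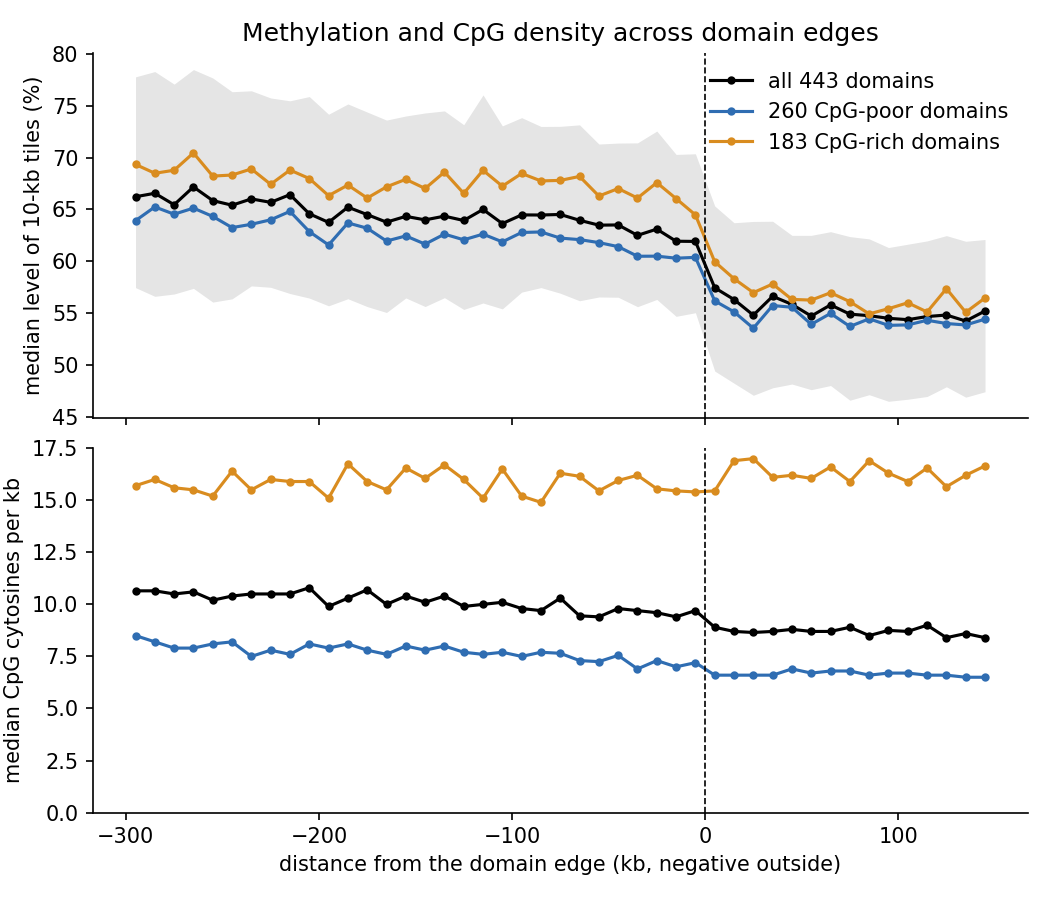
Median methylation level of 10-kb tiles in percent (upper panel, grey band from the 25th to the 75th percentile for all domains) and median number of CpG cytosines seen per kb (lower panel) by distance in kb from the nearest domain edge, negative outside. For all 443 domains the level falls from 61.9% to 57.4% across the edge, and the density falls from 9.70 to 8.90 per kb.

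The domains were spread unevenly over the chromosomes. They took 2.76% of the bins of chromosome 22, the smallest share, and 22.6% of those of chromosome 25, the largest. Chromosomes 20, 12 and 18 followed with 18.2%, 17.9% and 17.9%. Cattle autosomes are acrocentric, and by convention their numbering starts at the centromere. In the first 5 Mb from position 1, 438 of 1449 bins (30.2%) were domain bins, against 4.49% in the last 5 Mb and 10.3% elsewhere. In the first 1 Mb the share was 42.1%, at 4 to 5 Mb 21.7%, and at 9 to 10 Mb 16.6%. The fall was not steady, with 29.5% at 5 to 6 Mb and 12.1% at 7 to 8 Mb. The share in the first 5 Mb was above that of the rest of the chromosome, ends left out, on 20 of 29 chromosomes, and 5 chromosomes had no domain bin there. In the last 5 Mb 24 of 29 chromosomes had none. All bins in the first 5 Mb had a median of 11.3 cytosines per kb, those elsewhere 10.7 and those in the last 5 Mb 30.3. Domain bins had a mean of 9.04 cytosines per kb in the first 5 Mb and 11.1 elsewhere. Among bins at or below the median density, 51.2% of those in the first 5 Mb were domain bins, against 13.5% elsewhere. Above the median density it was 9.81% against 6.79%.

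The level of bins chosen without a library was also read in that library. When 1 library was left out and the members were chosen from the other 5, the level in the library left out was 48.4% to 49.3% in the chosen bins and 67.2% to 68.1% in the others. Between 94.8% and 96.3% of the domain bins were among the bins chosen, a choice that shares 5 libraries with the full one. Members chosen from the control libraries alone numbered 2825 bins in 464 domains, and from the butyrate libraries alone 2683 bins in 439 domains. The 2273 bins found in both made up 80.5% of the first and 84.7% of the second.

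Butyrate was compared with control over the same domains, a contrast that the rule did not use. The level over all domains was 48.7%, 48.4% and 48.5% in the control libraries and 49.1%, 49.0% and 49.1% in the butyrate libraries. The butyrate libraries were all higher, by 0.534 points, at 49.1% ± 0.022 against 48.5% ± 0.119 (SD, n = 3 each; exact permutation test, two-sided p = 0.1, the smallest that 3 against 3 allow). The other bins went from 67.4% ± 0.096 to 68.0% ± 0.101, a difference of 0.611 points. The difference in the domains minus that in the other bins was -0.077 points, with overlapping groups (exact permutation test, p = 0.3), which does not show that domains and other bins differed alike. On lane 6 alone the domains differed by 0.509 points, and the sign of the comparison with the other bins turned, at 0.0146. The size in the domains depended on weighting, with 0.273 points for the mean of bin levels in place of the level over all reads. The difference of the domains minus that of the other bins was then -0.289 points, and with equal weights for the 4 classes of windows it was -0.226 (exact permutation test, p = 0.1 for both, the smallest possible). It also depended on how members were chosen, with 0.721 points for domains chosen from the control libraries and 0.270 for those chosen from the butyrate libraries. The domains minus the other bins then gave 0.126 and -0.363 points. Choosing low bins from the libraries of 1 group favours a low level in that group, so these values do not test the contrast.

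When cytosines were sorted by their neighbours, the solitary cytosines of the domains had overlapping groups. Their level was 46.2%, 46.2% and 46.1% in control and 46.2%, 46.0% and 46.0% in butyrate libraries, a difference of -0.0927 points (exact permutation test, p = 0.3). Solitary cytosines of the other bins had 67.1%, 67.0% and 67.0% in control and 67.7%, 67.4% and 67.4% in butyrate libraries, a difference of 0.436. The level of domains minus that of other bins went from -20.9 ± 0.040 points in control to -21.4 ± 0.037 in butyrate libraries (SD, n = 3 each), a difference of -0.529, and the groups did not overlap. The exact permutation test gave p = 0.1, the smallest possible, and 0.267 after Benjamini-Hochberg adjustment over the 8 classes of windows and neighbours compared. On lane 6 alone, with its single butyrate library, the solitary cytosines differed by -0.135 points in domains and 0.351 in the other bins. The classification by neighbours was added after the levels had been seen. Among the other 7 classes, the difference of the domains minus that of the other bins was without overlap in windows with 1 to 5 (-0.4004 points) and 6 to 15 cytosines (-0.333 points). The exact permutation test gave p = 0.1 for each, and 0.267 after the same adjustment. The groups of this difference overlapped in the remaining 5 classes. It was 0.0447 points in windows with 16 to 30 cytosines and -0.215 with over 30. For cytosines with 1 or 2 others within 35 bp it was -0.231, with 3 to 6 others 0.217, and with 7 or more -0.216 points (exact permutation p from 0.2 to 0.9).

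**Figure D5:**
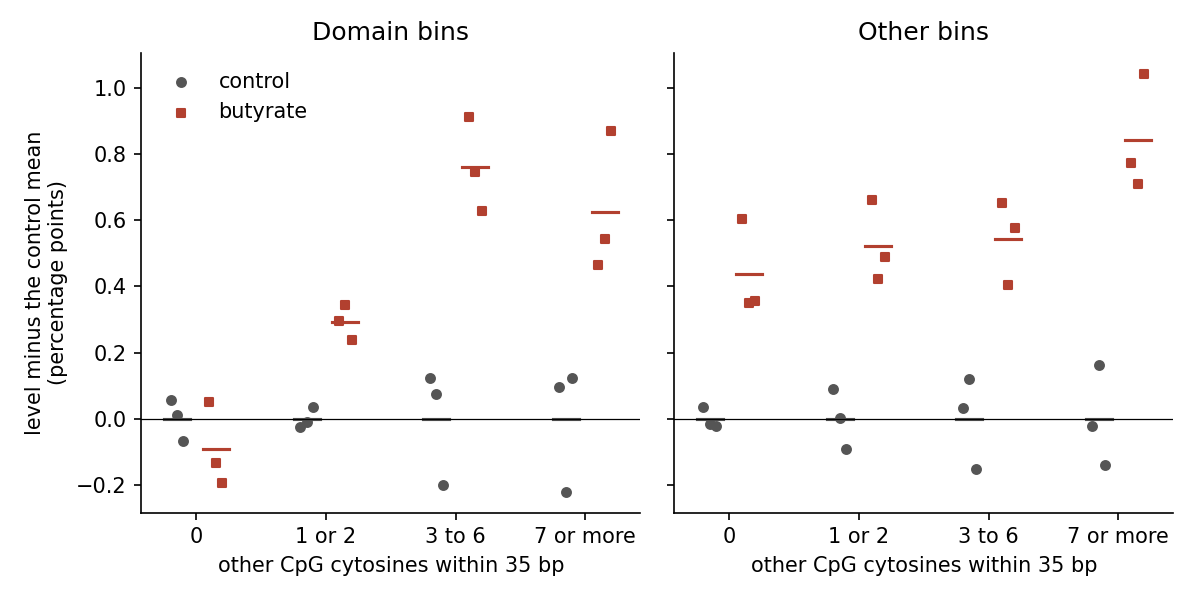
Methylation level of each library minus the control mean, in percentage points (vertical axis), for cytosines by the number of other CpG cytosines seen within 35 bp (horizontal axis), in domain bins (left) and other bins (right). Points are single libraries (3 control, 3 butyrate) and short lines group means; solitary cytosines have a mean difference of -0.0927 points in domains and 0.436 in the other bins.

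CpG-poor and CpG-rich domains were also compared over all cytosines. The level went from 50.3% ± 0.195 to 50.5% ± 0.075 in CpG-poor domains, a difference of 0.263 points, and from 47.5% ± 0.166 to 48.2% ± 0.027 in CpG-rich domains, a difference of 0.646 (SD, n = 3 each; p = 0.1 for both by exact permutation). The difference between these 2 was not tested. The other bins at or below the median density differed by 0.428 points and those above it by 0.650. The difference of the domains minus that of these bins was -0.165 points for CpG-poor domains (exact permutation test, p = 0.3) and -0.00423 points for CpG-rich domains (exact permutation test, p = 1).

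No single domain or domain bin changed past the threshold of limma. At an adjusted p under 0.05, 0 of 27035 bins (0% in either direction) and 0 of 7719 segments (0%), made of the domains and of blocks of 3 other bins, were called. The smallest adjusted p was 0.882 among the bins and 0.709 among the segments. At an unadjusted p under 0.05, 82 domain bins (2.93%) were higher and 48 (1.72%) lower in butyrate, against 3.89% and 1.69% of all bins. A fitted log2 difference above 0 was found in 1487 domain bins (53.2%), against 59.7% of all bins. The groups did not overlap in 174 domain bins that were higher (6.22%, against 7.83% of all) and in 106 that were lower (3.79%, against 3.33%). Of whole domains 281 of 443 (63.4%) had a fitted log2 difference above 0, against 65.8% of all segments. At an unadjusted p under 0.05, 12 domains (2.71%, against 5.22% of all segments) were higher and 6 (1.35%, against 1.55%) lower. Without overlap 36 domains were higher (8.13%, against 10.2% of all segments) and 17 lower (3.84%, against 2.54%). The shares of higher bins and domains were below those of all bins and segments, while the shares of lower ones lay on either side of them. Depth was not alike in these comparisons. Domain bins had a median of 305 reads per library and other autosomal bins 506. Domains hold 3 or more bins and a block holds 3. What depth adds to the shares was not tested, so they are not read as a trait of the domains. The shares are a description and were not tested.

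The domain bins with the smallest p in each direction follow. The bin chr10:57300001-57400000 had 42.6%, 45.1% and 46.1% in control and 53.1%, 52.5% and 55.6% in butyrate libraries, from 183 to 223 reads a library. Its log2 ratio of methylated to unmethylated reads was higher by 0.52 (SE 0.12, limma adjusted p = 0.882). The bin chr23:7100001-7200000 had 50.3%, 48.8% and 46.8% in control and 56.3%, 56.8% and 57.5% in butyrate libraries, a log2 difference of 0.48 (SE 0.12). In the other direction, chr1:105400001-105500000 had 60.6%, 61.8% and 59.2% in control and 50.3%, 52.5% and 47.3% in butyrate libraries, with a log2 difference of -0.61 (SE 0.13). The bin chr4:72600001-72700000 had 61.5%, 65.3% and 60.3% in control and 52.2%, 54.6% and 53.7% in butyrate libraries, with a log2 difference of -0.52 (SE 0.13). The chr1 and chr4 bins had control means of 60.6% and 62.4%, above the threshold, so they are members through the low butyrate libraries in the pooled level. The groups were apart in all 4, and none passed the adjustment over all bins (limma adjusted p = 0.882 in each).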

How the data were processed

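REPC libraries of whole-genome bisulfite sequencing, 3 control and 3 butyrate, were analysed. The deposited files, 1 per library, give each CpG cytosine a count of methylated and a count of unmethylated reads, which the authors made by trimming with Trim Galore 0.4.1, mapping to UMD3.1.1 with bowtie2 and extraction with Bismark at default settings. How duplicates were treated and how complete conversion was are not given in the sources at hand; the labels and the design text differ in read length and run type. Duplicates would make reads less independent than counted.

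The files were joined by position over 38416464 cytosines, and libraries had 18793438 to 23842285 reads at CpGs. Positions and bins are those of the files (UMD3.1.1), counted from 1. The domain rule is given in the report. CpG density counts every CpG cytosine with a read in at least 1 library. For tiles, edges and single sites, cytosines with over 141 pooled reads were left out. A domain bin had a median of 305 reads per library, another bin 506. Limma 3.58.1 (R 4.3.3) was fitted to log2((methylated + 1)/(unmethylated + 1)) over all bins, chromosome X and scaffolds included, and over segments, after being tested on simulated data. The simulated counts were binomial without added variance between libraries. Their changes were larger than the difference found over all domains. The simulation therefore gives no detection limit for these data. Python 3.11.15 with NumPy 2.4.6 and pandas 2.3.3 was used for levels, and Matplotlib 3.10.9 for figures.

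Named regions were the 3 longest and 3 lowest domains, the 2 domain bins with the smallest limma p in each direction, and bins at the threshold. Members, classes and tests were chosen with earlier results of these data known. Alternatives were other thresholds, read minimums, bin sizes, run lengths, choosing libraries, scales, weights, a replicate block, lane 6 alone and each library left out; the split into CpG-poor and CpG-rich domains, windows with up to 15 cytosines alone and the classes by neighbours were added after seeing the data. Planned gene lists were not used, since the gene table is of another assembly.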

Additional observations from a re-analysis of the deposited data

How the results depend on the processing

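The number of domain bins of 100 kb was 2796, and 3896 at a threshold of 60%, 1585 at a threshold of 55%, and 1551 with at least 200 reads per bin. With bins of 50 kb in runs of 6 or more it was 1293, under the same read minimum. Each of these covers 50 kb in place of 100 kb, so the fall in length covered is larger than the counts alone show. The density ratio of domain to other bins, 0.720, was 0.702 at a threshold of 55%, 0.729 at 60%, 0.930 with 200 reads, 0.866 with bins of 50 kb, 0.611 with runs of 5 or more bins, 0.738 when control libraries chose the members and 0.709 when butyrate libraries did, and 0.714 to 0.732 with 1 library left out. It stayed below 1 in each of these. The ratio of reads per covered cytosine was 0.919 to 0.923 with 1 library left out, and 0.867 to 0.951 under the other 9 alternatives.

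The level difference between butyrate and control was 0.472 to 0.603 points with 1 library left out and 0.270 to 0.773 under the other alternatives set at the start, all positive. The lowest, 0.270, came from members chosen from the butyrate libraries, a choice that favours a low level in that group. The level difference turned for solitary cytosines alone (-0.0927) and in windows with 1 to 5 cytosines (-0.0339). It was 0.0976 in windows with up to 15 cytosines (exact permutation p = 0.5, groups overlapping). Solitary cytosines gave -0.155 points in CpG-poor and 0.205 in CpG-rich domains. Windows with 1 to 5 cytosines gave -0.0865 and 0.371, and the groups overlapped in each of these. On lane 6 alone, with 1 butyrate library, windows with 1 to 5 cytosines gave 0.0409 points over all domains. The difference of the domains minus that of the other bins, -0.077 points, turned when members were chosen from the control libraries (0.126), with at least 3 reads per cytosine and library (0.0217), and on lane 6 alone (0.0146, with 1 butyrate library). It was more negative for the mean of bin levels (-0.289), with equal weights for the 4 classes of windows (-0.226) and with runs of 5 or more bins (-0.226). Each of these was at the smallest exact permutation p of 0.1. With 1 library left out it was -0.157 to -0.037. Members chosen from the butyrate libraries gave -0.363. Choosing from 1 group favours a low level in that group, so -0.363 and 0.126 do not test the contrast. The cause of the other shifts was not tested. For solitary cytosines the difference of the domains minus that of the other bins was -0.549 to -0.499 with 1 library left out. Under 11 other alternatives it was -0.693 to -0.355, all negative. The ends of that range came from members chosen from the butyrate (-0.693) and the control libraries (-0.355), so they do not test the contrast. Without them the range was -0.529 to -0.374. With a replicate block the level difference was 0.534 (exact sign-flip permutation p = 0.25, the smallest that 3 pairs allow), and limma called 0 bins and 0 segments under the block. Numbers shared by control and butyrate replicates name no common source. The deviations of same-numbered libraries correlated by 0.00059, 0.0082 and 0.0066 over all bins, and by 0.0155, -0.0008 and 0.0185 over segments. Counting error in bins and segments can hide a shared source, so these values do not decide whether the libraries are paired. Limma called 0 domain bins and 0 domains under all 12 alternatives.

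Domain bins had a median of 305 reads per library; what depth alone adds to the error of a single bin was not tested, and duplicates and conversion could not be checked.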

Other observations

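Chromosome X, which is outside the autosomal domains, held 45 runs of the same kind with 199 of its 1242 bins that had the read minimum (16.02%). The longest was 1100 kb. Its bins had a median of 210 reads per library, below the autosomes, and 247 of its 1489 bins did not reach the minimum. The animal was male, so that 1 copy of chromosome X was read.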
